A study of Mus musculus with 4 samples.

Results

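The cells described here are contractile smooth muscle cells of the mouse ascending aorta in which UMIs of Igfbp2, Ramp1, Optc and Ppp1r14a together outnumbered those of a second gene set, Ptprz1, Npnt, Cdh6, Susd5, Abra and Xirp1. A UMI is a unique molecular identifier, the tag that marks 1 captured mRNA molecule. Members were chosen by these measured values: a barcode was kept with at least 200 genes and under 20% mitochondrial UMIs, and counted as contractile with Acta2 and Tagln at 1% of UMIs or more and above the Eln UMIs, under 2 UMIs of Tnnt2 and Corin, and no Ptprc UMI. Of 41399 barcodes, 40565 were kept, 8957 were contractile, and 3782 of those were members, against 4744 on the Ptprz1 and Npnt side and 431 ties. The 4 libraries held 1426 and 1409 members in AD_ABR replicates 1 and 2, and 178 and 769 in AD replicates 1 and 2.

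All mice were male and wild type, and drank BAPN (β-aminopropionitrile, which blocks lysyl oxidase and so the cross-linking of elastin and collagen) at 1 g/kg/d for 4 weeks from 3 weeks of age, a model of aortic dissection. The ascending aorta was taken. The AD_ABR mice also received paquinimod (ABR 25757), a compound that binds the inflammatory protein S100A9, by the intragastric route at 10 mg/kg/d until the experiment ended, and the AD mice received BAPN alone. There were 2 libraries in each group and none from mice without BAPN. The labels do not say how many animals entered a library, so the p-values below measure the spread between these libraries.

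Contractile smooth muscle cells of the aortic media carry the actin and myosin filaments that set wall tension, and they also make and organise elastic fibres. Ppp1r14a (CPI-17) inhibits myosin phosphatase and so holds myosin light chain phosphorylated. Ramp1 is the partner protein that turns the calcitonin receptor-like receptor Calcrl into a receptor for the vasodilator CGRP. Igfbp2 is a secreted binding protein of insulin-like growth factors, and Optc (opticin) is a small leucine-rich proteoglycan of the extracellular matrix. In GRCm38 Igfbp2 lies on chromosome 1 at 72824503 to 72852474, Ramp1 on chromosome 1 at 91179822 to 91225196, Optc on chromosome 1 at 133897199 to 133907999, and Ppp1r14a on chromosome 7 at 29289308 to 29293801.

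The member counts per library summed to 14857467 and 14145765 UMIs in AD_ABR, against 1441566 and 6608174 in AD, so the AD replicate 1 sum was the thinnest. The median UMIs per member were 9924 and 9316 in AD_ABR, against 7669.5 and 7861 in AD. The sequence Rn18s-rs5, related to ribosomal RNA, took 2.13 and 1.55% of member UMIs in AD_ABR, against 6.38 and 3.85% in AD. Library pairs shared 22 to 38 barcode sequences, counted over all deposited barcodes. The 10 smooth muscle markers summed to 56660 and 59457 CPM (UMIs of a gene per 1000000 UMIs of the summed members) in AD_ABR members, against 45942 and 50067 CPM in AD members. In the barcodes outside the contractile pool the same markers summed to 9239 and 6234 CPM in AD_ABR, against 3408 and 4637 CPM in AD. Acta2 and Tagln, which the rule used, gave most of the members' sum. Cnn1 (calponin), which it did not use, stood at 1715 and 1613 CPM in AD_ABR members, against 1389 and 1495 CPM in AD members, above the 309 and 181 CPM outside the pool in AD_ABR and the 94.6 and 132 CPM there in AD.

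Markers of other cell types were present in members at unequal levels. The 7 pericyte markers summed to 922 and 787 CPM in AD_ABR members, against 814 and 944 CPM in AD members, above the 557 and 441 CPM outside the pool in AD_ABR and the 338 and 336 CPM there in AD, and Rgs5 and Cspg4 gave most of the sum. The 5 adipocyte markers summed to 319 and 367 CPM in AD_ABR members, against 275 and 266 CPM in AD members, nearly all of it Fabp4, while Adipoq, Plin1, Cidec and Ucp1 were each under 1 CPM. The 9 fibroblast markers summed to 2243 and 3437 CPM in AD_ABR members, against 2986 and 2894 CPM in AD members, below the 18964 and 21095 CPM outside the pool in AD_ABR and the 10557 and 14939 CPM there in AD. The 8 neutrophil markers summed to 12.05 and 13.1 CPM in AD_ABR members, against 68.7 and 19.98 CPM in AD members. S100a8 itself was seen in 0.210 and 0.213% of AD_ABR members, against 12.4 and 1.56% of AD members. The 7 Schwann cell markers summed to 8.95 and 8.48 CPM in AD_ABR members, against 114 and 92.8 CPM in AD members. Barcodes with Acta2 and Tagln between 1 and 2% of UMIs made up 9.89 and 8.52% of AD_ABR members, against 19.1 and 16.1% of AD members. In those barcodes the fibroblast markers summed to 7633 and 10403 CPM in AD_ABR, against 8397 and 7181 CPM in AD, and the Schwann markers to 18.8 and 13.5 CPM in AD_ABR, against 548 and 466 CPM in AD. With the floor raised to 2%, the Schwann sums were 8.07 and 8.03 CPM in AD_ABR members, against 5.21 and 7.99 CPM in AD members. Results that changed under that floor, which was added after seeing the data, are given both ways below.

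The genes that chose the members are described without a test. Ppp1r14a gave 53.0 and 46.5% of the UMIs of the 4-gene sum in AD_ABR members, against 58.1 and 55.7% in AD members, and Ramp1 gave 30.7 and 33.7% in AD_ABR, against 25.3 and 27.4% in AD. Ppp1r14a stood at 1212 and 1108 CPM in AD_ABR members, against 1064 and 1136 CPM in AD members, and on the other side at 721 and 669 CPM in AD_ABR, against 679 and 756 CPM in AD. Ramp1 stood at 702 and 804 CPM in AD_ABR members, against 464 and 558 CPM in AD members, and on the other side at 546 and 609 CPM in AD_ABR, against 396 and 489 CPM in AD. Ramp1 was therefore above the AD libraries in both AD_ABR libraries on either side, and the sides differed by less than the groups did. Optc stood at 199 and 221 CPM in AD_ABR members, against 136 and 205 CPM in AD members. Igfbp2 stood at 174 and 250 CPM in AD_ABR members, against 169 and 139 CPM in AD members, and on the other side at 28.9 and 37.3 CPM in AD_ABR, against 27.3 and 29.6 CPM in AD. Among the genes of the second set, Npnt (nephronectin, a matrix ligand of integrins) stood at 834 and 836 CPM in AD_ABR members, against 633 and 671 CPM in AD members, and on its own side at 1454 and 1466 CPM in AD_ABR, against 1310 and 1325 CPM in AD.

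A gene counted in the rule must differ between the sides, so levels were also read on UMIs that had not chosen them: each UMI was put in set A or set B by a fair coin, sides were called on set A, and CPM were read on set B. On these held-out UMIs the log2 ratio of members over the other side (5 CPM added) was 2.32 and 2.30 in AD_ABR, against 1.87 and 2.13 in AD, for Igfbp2. For Ppp1r14a it was 0.53 and 0.53 in AD_ABR, against 0.37 and 0.23 in AD. Those 2 genes kept their sign in all 4 libraries. Ramp1 had 0.19 and 0.15 in AD_ABR, against 0.14 and -0.07 in AD, and Optc 0.13 and 0.32 in AD_ABR, against -0.23 and 0.17 in AD. These 2 genes thus changed sign in 1 AD library each. The 6 genes of the second set were lower in members of all 4 libraries, from -0.12 for Cdh6 in AD replicate 2 to -0.85 for Ptprz1 in AD replicate 1, and Npnt had -0.52 and -0.55 in AD_ABR, against -0.58 and -0.67 in AD. Of the members called on set A, 62.0 and 65.9% in AD_ABR, against 49.2 and 60.9% in AD, were members again on set B. All contractile barcodes were members on set B in 38.3 and 46.0% of cases in AD_ABR, against 26.2 and 44.0% in AD.

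**Figure D1:**
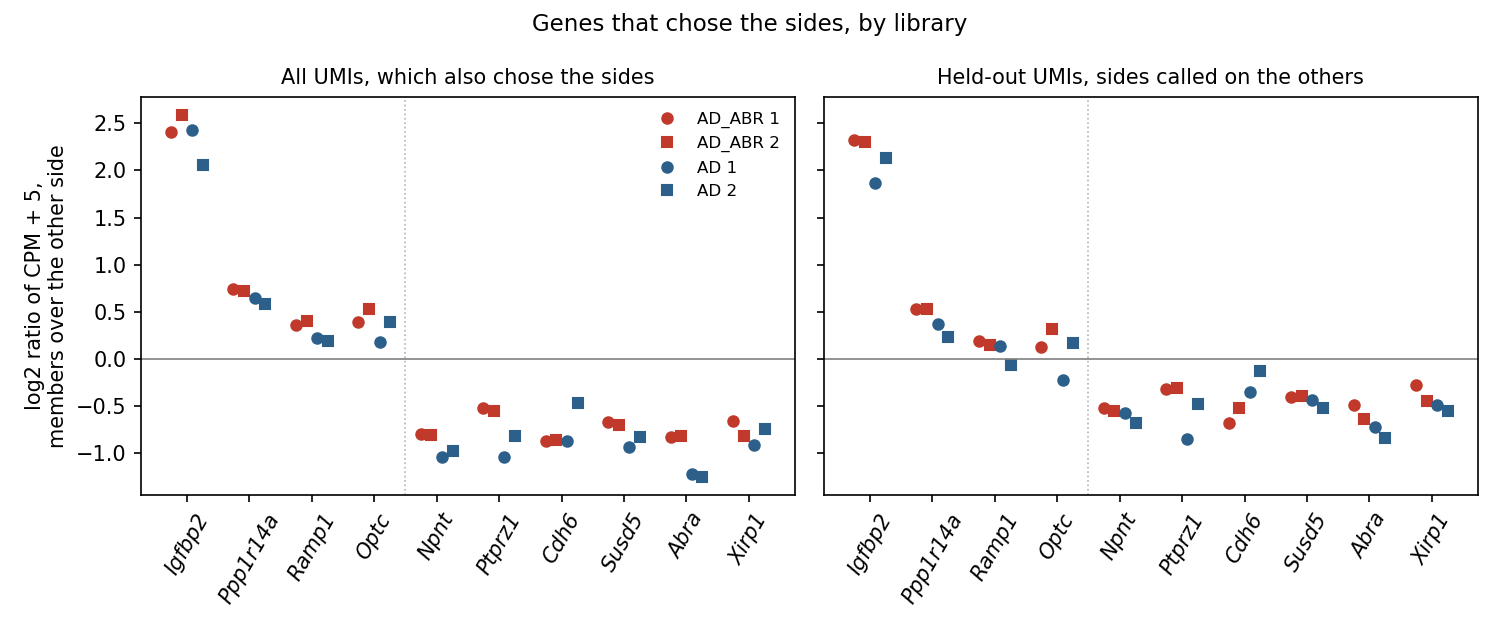
Each point is 1 library; the vertical axis is the log2 ratio of CPM (5 CPM added) in members over the Ptprz1 and Npnt side, for the 4 genes of the members' sum and the 6 genes of the other sum. On the left all UMIs were used; on the right sides were called on some UMIs and levels read on the others, where Igfbp2 stays between 1.87 and 2.32 and Ramp1 lies between -0.07 and 0.19.

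The margin is own-sum UMIs minus other-sum UMIs. It had a median of 7 and 7 in AD_ABR members, against 4 and 5 in AD members. The margin grows with depth, and AD_ABR members were deeper (median 9924 and 9316 UMIs, against 7669.5 and 7861 in AD), which was not corrected for. It also rests on few UMIs per cell, so its spread cannot tell a range from separate groups. Just inside the threshold, at a margin of 1, were 146 and 138 AD_ABR members, against 31 and 101 AD members, and just outside it, at 0, were 139 and 165 barcodes in AD_ABR, against 27 and 100 in AD. Averaged over the 4 libraries, Ppp1r14a stood at 743 CPM in ties, 824 at a margin of 1, 892 at 2 to 3, 1061 at 4 to 7 and 1338 at 8 or more. Igfbp2 stood at 27.3 CPM in ties, 21.6, 48.7 and 56.6 in the next 3 classes and 378 at a margin of 8 or more. The margin counts UMIs of these genes, so this order follows in part from the rule.

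Igfbp2 was carried by few cells. An Igfbp2 UMI was seen in 17.8 and 20.2% of AD_ABR members, against 14.6 and 17.0% of AD members, at median depths near those above. In the kept barcodes with Ptprc UMIs it was seen in 4.32 and 3.15% in AD_ABR, against 0.930 and 3.26% in AD. Acta2 was seen in 94.3 and 87.1% of those barcodes in AD_ABR, against 42.8 and 77.2% in AD, so they were not free of smooth muscle RNA. Members were not its only carriers. Smooth muscle barcodes in which Eln UMIs reached those of Acta2 and Tagln had Igfbp2 at 511 and 294 CPM in AD_ABR, against 121 and 1156 CPM in AD. Those with at least 2 UMIs of Tnnt2 and Corin had 211 and 200 CPM in AD_ABR, against 83.9 and 272 CPM in AD. Members with at least 5 Igfbp2 UMIs numbered 91 and 109 in AD_ABR, against 12 and 37 in AD, and held 88.4 and 91.5% of the members' Igfbp2 UMIs in AD_ABR, against 90.9 and 82.5% in AD. Their median UMIs were 12890 and 12132 in AD_ABR, against 11040.5 and 10389 in AD, so they were deeper than members in general. Among the genes higher in them than in the other members of every library, chosen after their values were seen and not tested, was Acan (aggrecan, the cartilage proteoglycan), at 99.5 and 72.9 CPM in the Igfbp2-rich members of AD_ABR, against 284 and 150 CPM in those of AD. The remaining members had Acan at 36.4 and 38.4 CPM in AD_ABR, against 44.6 and 44.3 CPM in AD. Optc was lower in the Igfbp2-rich members than in the remaining ones of every library, and Npnt, Ptprz1, Susd5 and Eln were higher. Ramp1, Ppp1r14a, Cdh6, Abra and Xirp1 changed sign between libraries. Igfbp2 UMIs count toward the members' sum, so the higher second-set genes follow in part from the rule. All 4 genes of the sum were seen together in 195 and 218 members in AD_ABR, 13.7 and 15.5%, against 17 and 91 members in AD, 9.55 and 11.8%. Detection depends on UMIs per barcode, which were higher in AD_ABR members, and that part was not tested.

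Few genes differed widely between members and the other side. Among 5751 genes with at least 20 CPM on the higher side, 5 were higher by 1.5-fold in members of all 4 libraries (Igfbp2 of the rule, Cpxm2, Serpinf1, Tmem119 and Pcolce) and 6 lower (Npnt, Susd5, Xirp1 and Abra of the rule, Acan and Malt1), a description with no test, since the sides were made by the rule. Secreted proteins were among the top genes of members, ranked by the smallest log2 ratio over the 4 libraries. Serpinf1 (the secreted serpin PEDF) stood at 113 and 179 CPM in AD_ABR members, against 129 and 108 CPM in AD members, with 64.2 and 109 CPM on the other side in AD_ABR, against 31.4 and 48.0 CPM in AD. Pcolce, an enhancer of collagen processing, stood at 62.7 and 97.0 CPM in AD_ABR members, against 64.5 and 82.5 CPM in AD members, with 39.8 and 58.9 CPM on the other side in AD_ABR, against 32.4 and 43.4 CPM in AD. Cpxm2, Tmem119, Igfbp5, Sncg, Dpt, Igfbp6, Clec3b, Ccl19, Dcn and Ntrk2 were also higher in all 4 libraries on all UMIs, though Igfbp6 had a held-out log2 ratio of -0.02 in AD replicate 2 and Ntrk2 one of -0.44 in AD replicate 1. Serpinf1, Dpt, Dcn and Clec3b are fibroblast markers, and the fibroblast marker sum on the other side was 2024 and 2843 CPM in AD_ABR, against 2004 and 2206 CPM in AD, below the members' sum in every library. The part of fibroblast RNA in these differences was not tested.

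Ranked likewise by the smallest difference over the 4 libraries, the genes lowest in members included Acan, Malt1, Spp1, Emb, Gm37376, Dsp, Fbxo30, Gm48565, Glg1, Gm16133 and Gm8251. Of these, Gm48565 had a held-out log2 ratio of 0.10 in AD replicate 1. Acan stood at 42.0 and 41.9 CPM in AD_ABR members, against 68.0 and 51.1 CPM in AD members, with 78.4 and 92.3 CPM on the other side in AD_ABR, against 109 and 92.3 CPM in AD. Emb (embigin, a chaperone of lactate transporters) stood at 116 and 99.1 CPM in AD_ABR members, against 95.04 and 127 CPM in AD members, below 188 and 169 CPM in AD_ABR and 188 and 188 CPM in AD on the other side. Dsp (desmoplakin) lay lower in members in each library by the same kind of margin. Of 23 contractile genes at this level, 8 were higher and 10 lower in members of all 4 libraries, with a median log2 ratio of -0.02, against -0.04 over all genes. Of 26 calcium and relaxation genes 4 were higher and 17 lower (median -0.16), of 10 IGF system genes 4 and 4 (median -0.06), and of 8 small leucine-rich proteoglycans 5 and 1 (median 0.32).

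The share of members differed among the libraries. Members made up 39.6% (95% exact binomial interval 38.0 to 41.2) and 47.3% (45.5 to 49.2) of contractile barcodes in AD_ABR, against 26.6% (23.3 to 30.1) and 45.0% (42.6 to 47.4) in AD. The intervals cover counting error only. The means were 43.5 ± 5.50% in AD_ABR and 35.8 ± 13.02% in AD (SD, n = 2 each; two-sided exact permutation test, p = 0.667, where 2 against 2 libraries cannot go below 0.333). Without AD replicate 1 the difference was -1.57 percentage points in place of 7.64, so its sign rested on that library. Of all kept barcodes, members were 15.6 and 13.04% in AD_ABR, against 1.79 and 7.19% in AD, with no overlap of the groups (means 14.3 ± 1.84% in AD_ABR and 4.49 ± 3.82% in AD, SD, n = 2 each; exact permutation test, p = 0.333, the smallest this design allows). The contractile pool as a whole moved likewise, at 39.5 and 27.5% of kept barcodes in AD_ABR, against 6.73 and 16.0% in AD, and such shares depend on every other cell type recovered from the tissue.

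To ask what paquinimod changed in these cells, member UMIs were summed per library and tested with edgeR's quasi-likelihood test as AD_ABR minus AD. Of 13402 genes tested, 1265 passed an adjusted p of 0.05 (9.44%), of which 512 rose (3.82%) and 753 fell (5.62%) in AD_ABR. With Acta2 and Tagln at 2% of UMIs or more, 868 of 12952 genes passed (6.70%), of which 759 were among the 1265. The counts depended on single libraries, with 601 calls without AD_ABR replicate 2, 794 without AD_ABR replicate 1 and 1595 without AD replicate 2. The median log2 fold change over all genes tested was -0.02.

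Rises and falls were ranked among genes past the test with a mean of at least 20 CPM and groups not overlapping. A level in members at least that outside the contractile pool was also required. In that ranking, transcription factors were among the largest rises. Klf15, a transcription factor that glucocorticoids induce and that restrains smooth muscle growth, stood at 39.6 and 47.2 CPM in AD_ABR members, against 12.5 and 12.1 CPM in AD members (log2 fold change 1.90, SE 0.18, adjusted p = 1.46e-07), and was seen in 31.8 and 36.6% of AD_ABR members, against 9.55 and 9.75% of AD members. Zbtb16, another glucocorticoid-induced transcription factor, stood at 135 and 114 CPM in AD_ABR members, against 53.4 and 44.5 CPM in AD members (log2 fold change 1.46, SE 0.15, adjusted p = 2.67e-07). The ranking required that the groups not overlap, so the separation of these 2 genes was set by the choice. Cdo1, which oxidises cysteine, stood at 148 and 156 CPM in AD_ABR members, against 59.7 and 61.4 CPM in AD members (log2 fold change 1.39, SE 0.14, adjusted p = 1.56e-07). Myoz2, a Z-disc protein that binds calcineurin, stood at 108 and 89.4 CPM in AD_ABR members, against 27.7 and 39.0 CPM in AD members (log2 fold change 1.54, SE 0.16, adjusted p = 6.38e-07). Also among the 10 largest rises were Ahsa2 (a relative of an HSP90 co-chaperone), Haus8 (an augmin subunit), Htr1b (a serotonin receptor), Kif3a (a kinesin motor subunit) and Ntf3 (neurotrophin-3), with log2 fold changes of 1.74, 1.23, 1.11, 1.08 and 1.05.

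In the same ranking, sterol genes were among the largest falls. It left out genes lower in members than outside the pool, such as the NF-kB list below, some with larger falls. Idi1, a step of the isoprenoid pathway, stood at 17.5 and 13.2 CPM in AD_ABR members, against 54.8 and 39.2 CPM in AD members (log2 fold change -1.46, SE 0.18, adjusted p = 1.41e-05). Cyp51, the lanosterol demethylase, fell to 35.3 and 22.6 CPM in AD_ABR members, against 85.3 and 66.4 CPM in AD members (log2 fold change -1.27, SE 0.21, adjusted p = 0.00306). Both of these sterol genes separated the groups without overlap, which the ranking required. Pln (phospholamban, the inhibitor of the sarcoplasmic calcium pump) fell to 15.0 and 12.9 CPM in AD_ABR, against 50.6 and 32.4 CPM in AD (log2 fold change -1.39, SE 0.19, adjusted p = 4.41e-05). Notch3, the main Notch receptor of arterial smooth muscle, fell to 26.1 and 28.5 CPM in AD_ABR members, against 83.2 and 54.6 CPM in AD members (log2 fold change -1.18, SE 0.17, adjusted p = 8.96e-05). Actc1 (cardiac actin) stood at 10.4 and 11.6 CPM in AD_ABR members, against 28.4 and 40.7 CPM in AD members (log2 fold change -1.67), but it was seen in 1.61 and 1.92% of AD_ABR members, against 3.93 and 3.25% of AD members, and a single barcode gave 53.7% of its UMIs in AD replicate 1. Kcnk3 (a potassium channel), Tent5a, Lars2 and Rn18s-rs5 were also among the 10 largest falls of that ranking, with log2 fold changes of -1.13, -1.12, -1.29 and -1.40. Lars2 encodes the mitochondrial leucyl-tRNA synthetase, and it moved with Rn18s-rs5 on the other side too (log2 fold changes -1.37 and -1.57).

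**Figure D2:**
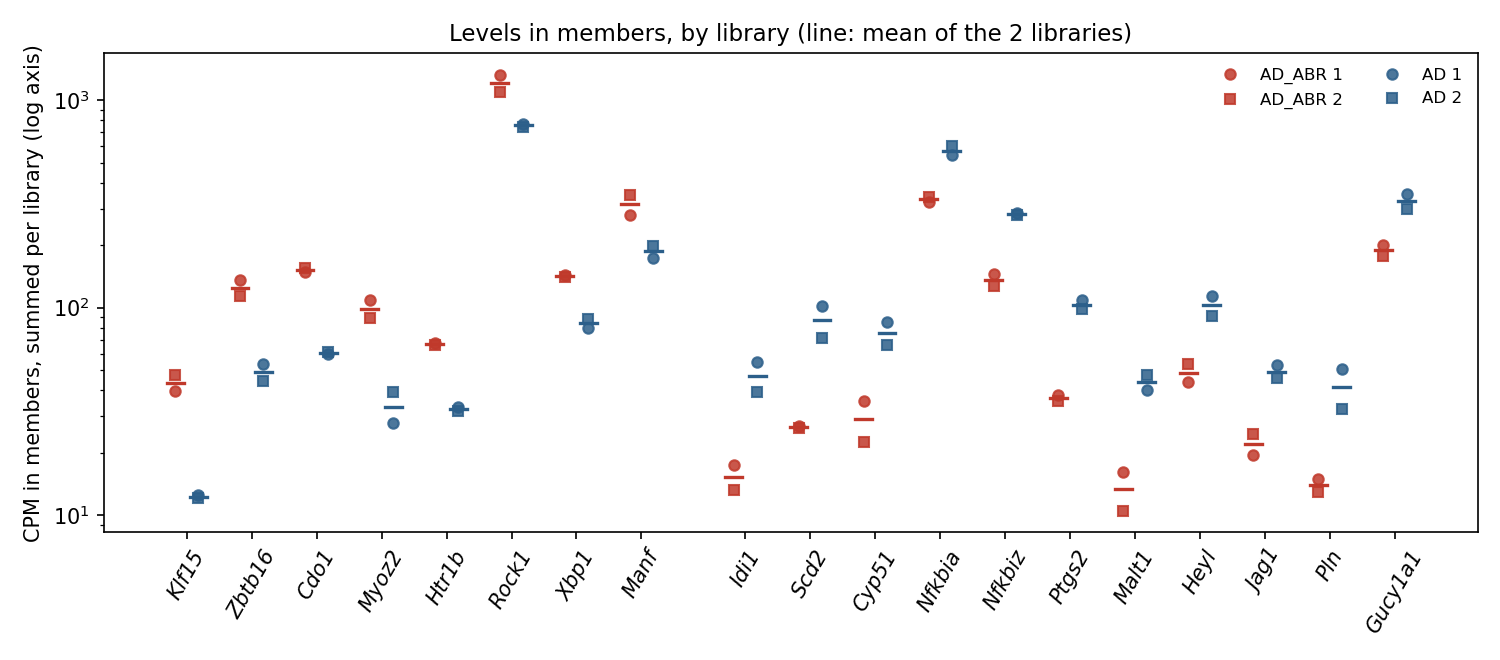
The vertical axis is the level in CPM of the summed members on a log axis; each point is 1 library, with AD_ABR to the left of AD for each gene, and the line is the mean of the 2 libraries. For the genes at the left, from Klf15 to Manf, both AD_ABR libraries lie above both AD libraries, and for those at the right, from Idi1 to Gucy1a1, both lie below.

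The contractile list had a median near that of all genes tested. Of 24 contractile genes tested, 2 rose and 2 fell (16.7%, against 9.44% of all genes tested), with a median log2 fold change of -0.03. At the 2% floor 6.70% of all genes tested passed, the share to set beside each list count given at that floor. Csrp1, an actin-associated LIM protein, stood at 1554 and 1596 CPM in AD_ABR members, against 1156 and 1290 CPM in AD members (log2 fold change 0.44, SE 0.14, adjusted p = 0.0427), and Ldb3, a Z-disc protein, rose by a log2 fold change of 0.49 (adjusted p = 0.0200). Neither passed with the 2% floor (adjusted p = 0.128 and 0.0640). Desmin (Des), the muscle intermediate filament, fell to 86.6 and 87.7 CPM in AD_ABR members, against 180 and 120 CPM in AD members (log2 fold change -0.66, SE 0.15, adjusted p = 0.0102), and its partner Synm fell by 0.66. Both passed under the 2% floor. Myh11, the smooth muscle myosin heavy chain, stood at 3138 and 2759 CPM in AD_ABR members, against 4191 and 3823 CPM in AD members (log2 fold change -0.37, adjusted p = 0.105), and at the 2% floor it passed the test with Smtn (smoothelin; log2 fold changes -0.50 and -0.54). Acta2 stood at 23619 and 26011 CPM in AD_ABR members, against 17136 and 20378 CPM in AD members, and Tagln at 15581 and 16333 CPM in AD_ABR, against 11748 and 12218 CPM in AD, values the rule used. The calls among contractile genes thus went both ways with all members, and at the 2% floor none rose and 4 fell. That floor is itself set on contractile genes, Acta2 and Tagln. It left out 9.89 and 8.52% of AD_ABR members, against 19.1 and 16.1% of AD members. The part of this selection in the counts was not tested.

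Of 28 genes of calcium sensitivity and relaxation, 2 rose and 6 fell (28.6%, against 9.44% of all genes tested, median -0.02). Rock1, a kinase that inhibits myosin phosphatase, stood at 1324 and 1091 CPM in AD_ABR members, against 769 and 742 CPM in AD members (log2 fold change 0.75, SE 0.14, adjusted p = 0.000790). Ppp1r14c, a relative of Ppp1r14a, rose by a log2 fold change of 1.23 (SE 0.19). Gucy1a1, a subunit of the soluble guanylate cyclase that nitric oxide activates, fell to 200 and 178 CPM in AD_ABR members, against 352 and 298 CPM in AD members (log2 fold change -0.70, SE 0.13, adjusted p = 0.000949). The signalling regulators Rgs2 and Rgs4 fell by log2 fold changes of 0.66 and 0.47, beside Pln, and the sparse channel genes Trpc6 and Cacna1h fell from few UMIs. The same 2 and 6 directions were counted at the 2% floor.

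Receptors gave a mixed list. Of 23 vasoactive receptor genes tested, 2 rose and 5 fell (30.4%, against 9.44% of all genes tested, median -0.19). At the 2% floor 2 rose and 3 fell of 21. Htr1b stood at 67.4 and 65.7 CPM in AD_ABR members, against 33.3 and 31.9 CPM in AD members (SE 0.15, adjusted p = 2.20e-05). Npy1r, a receptor for neuropeptide Y, stood at 264 and 232 CPM in AD_ABR members, against 180 and 152 CPM in AD members (log2 fold change 0.67, SE 0.13, adjusted p = 0.00182). Among those that fell, the serotonin receptor Htr2a stood at 2.96 and 2.54 CPM in AD_ABR members, against 9.02 and 8.78 CPM in AD members, and the endothelin receptor Ednra at 8.82 and 10.0 CPM in AD_ABR, against 29.1 and 16.2 CPM in AD. Ednrb, Adora2a and Ptgir also fell, each from under 6% of the barcodes, and Adora2a and Ptgir did not pass at the 2% floor (adjusted p = 0.292 and 0.159). Of the 5 genes of CGRP and adrenomedullin reception tested beside Ramp1, none passed (0 rose and 0 fell, median 0.14), and Calcrl, the receptor Ramp1 works with, stood at 20.1 and 16.8 CPM in AD_ABR members, against 13.9 and 18.3 CPM in AD members. At the 2% floor Ramp2, another partner protein of that receptor, passed with 10.6 and 15.4 CPM in AD_ABR members, against 3.47 and 7.43 CPM in AD members (log2 fold change 1.03, adjusted p = 0.0414).

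In the IGF system, to which Igfbp2 belongs, 2 of 16 tested genes rose and 3 fell (median -0.18). That is 31.25% called, against 9.44% of all genes tested. Htra1, a protease that cleaves IGF-binding proteins, stood at 719 and 834 CPM in AD_ABR members, against 452 and 585 CPM in AD members (log2 fold change 0.65, SE 0.14, adjusted p = 0.00539). Irs2, the adaptor of the insulin and IGF receptors, fell to 87.2 and 81.1 CPM in AD_ABR members, against 150 and 134 CPM in AD members (log2 fold change -0.67, SE 0.13, adjusted p = 0.00120). Igfbp5 fell to 72.5 and 89.4 CPM in AD_ABR members, against 263 and 222 CPM in AD members (log2 fold change -1.496, SE 0.14, adjusted p = 8.93e-08). The members with Acta2 and Tagln between 1 and 2% gave 57.1 and 28.2% of its UMIs in AD_ABR, against 60.9 and 55.6% in AD, and at the 2% floor it did not pass (log2 fold change -1.20, adjusted p = 0.298). Stc2 rose and Stc1 fell, both below 10 CPM in every library, and neither passed at the 2% floor, where 1 gene rose and 1 fell of 15. Igf1r, the receptor itself, stood at 105 and 95.1 CPM in AD_ABR members, against 131 and 102 CPM in AD members (adjusted p = 0.670).

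Matrix genes went both ways. Of 34 elastic fibre and collagen genes, 2 rose and 3 fell (median 0.00), which is 14.7% called, against 9.44% of all genes tested. At the 2% floor none rose and 1 fell of 33 (Col8a1). Mfap4, a microfibril-associated protein, stood at 1077 and 1322 CPM in AD_ABR members, against 762 and 964 CPM in AD members (log2 fold change 0.54, SE 0.15, adjusted p = 0.0216, and 0.104 at the 2% floor). Ltbp1, which tethers latent TGF-beta to fibrillin, rose by a log2 fold change of 0.42 (adjusted p = 0.0409, and 0.148 at the 2% floor). Loxl2, a lysyl oxidase relative and so of the enzyme family that BAPN inhibits, fell by 0.54 with all members but had a log2 fold change of 0.0079 at the 2% floor (adjusted p = 0.987). Col5a3 and Emilin1 also fell with all members and had adjusted p-values of 0.544 and 0.0915 at that floor. Among 11 small leucine-rich proteoglycans, the family of Optc, Omd (osteomodulin) alone passed, at 32.2 and 35.9 CPM in AD_ABR members, against 23.6 and 20.3 CPM in AD members (log2 fold change 0.75, SE 0.17, adjusted p = 0.00477; list median -0.18, and 0.09 at the 2% floor). That is 9.09% of the list, against 9.44% of all genes tested.

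The synthetic phenotype is a less contractile state of smooth muscle. Of its 24 genes tested, 3 rose (Vim, S100a4 and Vcan) and 3 fell (Mmp14, Spp1 and Sox9). The median was -0.01, with 25% called, against 9.44% of all genes tested. At the 2% floor 1 rose and 3 fell of 23. Vimentin (Vim) stood at 7810 and 8120 CPM in AD_ABR members, against 5458 and 6608 CPM in AD members (log2 fold change 0.47, SE 0.15, adjusted p = 0.0497). At the 2% floor Vim, S100a4, Vcan and Spp1 did not pass (adjusted p = 0.0691, 0.0710, 0.0528 and 0.0528), whereas Mmp3 rose and Col8a1 fell. Mmp14, a membrane collagenase, fell to 42.1 and 42.4 CPM in AD_ABR members, against 83.9 and 75.5 CPM in AD members (log2 fold change -0.83, SE 0.14, adjusted p = 0.000273). Of 29 regional and lineage transcription factors 2 rose and 5 fell (24.1%, against 9.44% of all genes tested, median -0.16). Foxs1 stood at 51.4 and 46.9 CPM in AD_ABR members, against 29.8 and 36.2 CPM in AD members (log2 fold change 0.59), and Tbx20, a cardiac and outflow tract factor, fell to 16.0 and 12.5 CPM in AD_ABR, against 39.5 and 25.1 CPM in AD (log2 fold change -0.98). Msx2, Tbx2, Tbx3, Gata4 and Prrx1 were the other calls, and at the 2% floor 2 rose and 2 fell of 28, with Hoxb2 added, Tbx2, Gata4 and Prrx1 lost and Msx2 not tested.

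Notch pathway genes fell in 6 cases of 14 tested and rose in none (42.9%, against 9.44% of all genes tested, median -0.51). At the 2% floor 5 fell. Heyl, a transcriptional target of Notch, fell to 43.8 and 53.4 CPM in AD_ABR members, against 114 and 91.6 CPM in AD members (log2 fold change -0.97, SE 0.14, adjusted p = 8.96e-05). Jag1, a Notch ligand, fell to 19.6 and 24.7 CPM in AD_ABR members, against 52.7 and 45.7 CPM in AD members (log2 fold change -1.05, SE 0.16, adjusted p = 0.000116). Nrip2, known as a Notch3 target in smooth muscle, fell to 1.62 and 1.84 CPM in AD_ABR, against 18.7 and 16.3 CPM in AD, and Nrarp and Notch1 fell as well, Notch1 without passing at the 2% floor (adjusted p = 0.0638). The other targets on the list did not follow: Hes1 stood at 154 and 164 CPM in AD_ABR members, against 159 and 189 CPM in AD members (adjusted p = 0.758), and Hey2 at 36.5 and 34.4 CPM in AD_ABR, against 58.3 and 38.6 CPM in AD (adjusted p = 0.311). Notch3 kept a log2 fold change of -0.85 at the 2% floor (adjusted p = 0.00414).

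Of 19 TGF-beta response genes 1 rose (Ltbp1) and 2 fell (15.8%, against 9.44% of all genes tested, median -0.13). At the 2% floor Tgfbi rose and 1 gene fell. Smad3, a signal transducer of the pathway, fell to 3.90 and 4.88 CPM in AD_ABR members, against 14.6 and 13.5 CPM in AD members (log2 fold change -1.58, SE 0.25, adjusted p = 0.000135). Thbs1, which activates latent TGF-beta, fell to 84.9 and 53.2 CPM in AD_ABR members, against 268 and 244 CPM in AD members, and did not pass at the 2% floor (log2 fold change -1.35, adjusted p = 0.361). Of 21 glucocorticoid response genes 3 rose (Klf15, Zbtb16 and Hsd11b1) and 2 fell (Zfp36 and Per1). That is 23.8% called, against 9.44% of all genes tested, with a median of 0.30 and the same counts at the 2% floor. The classical targets Fkbp5 and Tsc22d3 did not pass. Fkbp5 stood at 21.5 and 39.9 CPM in AD_ABR members, against 9.02 and 8.47 CPM in AD members (adjusted p = 0.0724), and Tsc22d3 at 35.5 and 67.5 CPM in AD_ABR, against 49.9 and 27.2 CPM in AD (adjusted p = 0.628). The lists therefore did not move as units: Zfp36, which destabilises inflammatory mRNAs, fell to 235 and 278 CPM in AD_ABR members, against 449 and 516 CPM in AD members (log2 fold change -0.85, SE 0.14, adjusted p = 0.000194).

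Sterol and fatty acid synthesis fell more widely. Of 24 genes tested, 14 fell and none rose (58.3%, against 9.44% of all genes tested, median -0.78). At the 2% floor 12 fell. Hmgcs1, an entry enzyme of the mevalonate pathway, fell to 62.7 and 44.7 CPM in AD_ABR members, against 120 and 104 CPM in AD members (log2 fold change -0.97, SE 0.15, adjusted p = 0.000303). Scd2, a stearoyl-CoA desaturase, fell to 26.9 and 26.4 CPM in AD_ABR members, against 102 and 71.6 CPM in AD members (log2 fold change -1.57, SE 0.16, adjusted p = 2.71e-07). Stard4, Insig1, Msmo1, Sqle, Srebf1, Sc5d and Fdft1 fell beside Idi1 and Cyp51, Sc5d and Fdft1 without passing at the 2% floor (adjusted p = 0.0613 and 0.0516). Srebf2, the transcription factor that drives the sterol genes, stood at 52.7 and 45.1 CPM in AD_ABR members, against 58.3 and 51.8 CPM in AD members (log2 fold change -0.07, adjusted p = 0.803). The unfolded protein response list went the other way, with 9 of 21 genes higher and 1 lower (median 0.32, and the same counts at the 2% floor). That is 47.6% called, against 9.44% of all genes tested. All 21 had a lower mean level in members than in kept barcodes outside the contractile pool, as had 11 of the 24 sterol genes. UMIs of free RNA or of other cells could thus enter these values, and their part was not tested. Xbp1, the transcription factor spliced on endoplasmic reticulum stress, stood at 144 and 141 CPM in AD_ABR members, against 79.8 and 88.2 CPM in AD members (log2 fold change 0.82, SE 0.13, adjusted p = 0.000203). Manf, a secreted stress protein, stood at 279 and 351 CPM in AD_ABR members, against 174 and 199 CPM in AD members (log2 fold change 0.81, SE 0.14, adjusted p = 0.000464). Creld2, Sdf2l1, Selenos, Pdia6, Herpud1, Hsp90b1 and Dnajb11 rose with them. Atf4, the factor of the integrated stress response, fell to 207 and 191 CPM in AD_ABR members, against 315 and 299 CPM in AD members (log2 fold change -0.55), and Hspa5, the main chaperone of the compartment, stood at 932 and 975 CPM in AD_ABR, against 1056 and 798 CPM in AD (adjusted p = 0.648).

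NF-kB is a transcription factor that inflammatory signals release into the nucleus, where it induces cytokines, adhesion molecules and its own inhibitors. Its target list had the lowest median of the 16 lists. Of 24 genes tested, 17 fell and none rose (70.8%, against 9.44% of all genes tested, median -1.54). At the 2% floor 18 fell of 23 (median -1.36). To show the sequence before these genes, the RefSeq promoter windows (GRCm38.p6, 250 bases before to 50 after the start) of 3 genes of the list are printed with matches to the textbook NF-kB site consensus, searched on both strands, in capitals. Nfkbia lies at chr12:55492598-55492897, Tnfaip3 at chr10:19015361-19015660 and Rel at chr11:23770920-23771219, each on the minus strand, and the matches, counted from the start, begin at -29 for Nfkbia, at -125 and -12 for Tnfaip3, and at -92 and -91, overlapping, for Rel.
Nfkbia: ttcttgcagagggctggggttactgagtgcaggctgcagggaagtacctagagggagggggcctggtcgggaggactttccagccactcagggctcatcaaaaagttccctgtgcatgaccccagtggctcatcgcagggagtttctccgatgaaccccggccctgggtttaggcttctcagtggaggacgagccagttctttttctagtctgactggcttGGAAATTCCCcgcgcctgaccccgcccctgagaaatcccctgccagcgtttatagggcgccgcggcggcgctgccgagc
Tnfaip3: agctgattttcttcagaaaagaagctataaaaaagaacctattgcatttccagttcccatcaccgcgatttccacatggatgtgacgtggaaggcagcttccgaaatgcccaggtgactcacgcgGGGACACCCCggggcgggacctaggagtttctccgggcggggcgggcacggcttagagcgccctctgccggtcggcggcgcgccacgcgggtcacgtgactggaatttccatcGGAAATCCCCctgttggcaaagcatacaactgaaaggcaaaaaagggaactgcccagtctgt
Rel: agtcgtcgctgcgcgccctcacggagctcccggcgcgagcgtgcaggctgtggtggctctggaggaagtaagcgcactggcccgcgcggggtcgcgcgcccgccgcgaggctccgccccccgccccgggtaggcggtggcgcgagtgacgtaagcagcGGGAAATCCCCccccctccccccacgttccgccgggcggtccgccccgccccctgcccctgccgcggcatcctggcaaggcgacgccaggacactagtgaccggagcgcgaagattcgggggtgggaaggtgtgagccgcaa
The consensus occurred in 10 of the 17 listed genes with a window (Bcl3, Cxcl1, Cxcl2, Il6, Nfkb2, Nfkbia, Nfkbie, Rel, Sod2 and Tnfaip3) and in 4.51% of all 32841 windows. A match describes the letters and no binding was measured. In the glucocorticoid list the textbook glucocorticoid response element occurred in 2 of 16 genes (Mt1 and Sgk1; 0.0913% of windows), and neither passed the test. For the sterol list the letters TCACNCCAC occurred in 1 of 15 genes (Hmgcs1; 1.24% of windows).

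Of the inhibitors, Nfkbia fell to 324 and 342 CPM in AD_ABR members, against 541 and 599 CPM in AD members (log2 fold change -0.71, SE 0.13, adjusted p = 0.000811), and Tnfaip3 (A20) to 5.79 and 7.99 CPM in AD_ABR, against 61.7 and 36.2 CPM in AD (log2 fold change -2.63, SE 0.25, adjusted p = 6.19e-05). Nfkbiz, a nuclear cofactor, fell to 146 and 127 CPM in AD_ABR members, against 286 and 280 CPM in AD members (log2 fold change -0.98, SE 0.13, adjusted p = 1.70e-05). Of the subunits, Rel fell to 14.1 and 12.7 CPM in AD_ABR, against 44.4 and 33.4 CPM in AD (log2 fold change -1.40, SE 0.17, adjusted p = 8.13e-06), and Rela stood at 57.3 and 49.7 CPM in AD_ABR, against 67.3 and 69.0 CPM in AD (adjusted p = 0.209). Malt1, a protease of the activating complex, fell to 16.2 and 10.5 CPM in AD_ABR members, against 40.2 and 47.5 CPM in AD members (log2 fold change -1.68, SE 0.19, adjusted p = 1.12e-05). Of the effectors, Ptgs2 (cyclooxygenase-2) fell to 38.0 and 35.4 CPM in AD_ABR members, against 109 and 98.1 CPM in AD members (log2 fold change -1.41, SE 0.14, adjusted p = 1.36e-07), and Il6 to 11.8 and 9.76 CPM in AD_ABR, against 53.4 and 44.0 CPM in AD (log2 fold change -2.06, SE 0.17, adjusted p = 1.45e-08). The adhesion molecule Vcam1 fell to 27.3 and 32.0 CPM in AD_ABR members, against 136 and 106 CPM in AD members (log2 fold change -1.92, SE 0.15, adjusted p = 7.71e-09). For each of these except Rela, which did not pass, the call held at the 2% floor. Sod2 stood at 119 and 125 CPM in AD_ABR members, against 117 and 132 CPM in AD members (adjusted p = 0.924). The chemokines Cxcl1, Cxcl2 and Ccl2 had log2 fold changes of -2.20, -2.57 and -2.28 but did not pass (adjusted p = 0.133, 0.178 and 0.190), though at the 2% floor Cxcl1 and Cxcl2 passed (adjusted p = 6.47e-08 and 9.40e-05).

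All 24 genes of the NF-kB list had a lower mean level in members than in kept barcodes outside the contractile pool, so UMIs of free RNA or of other cells could enter their values. Neutrophil and Schwann marker sums were higher in AD members, as given above. In members without a UMI of neutrophil, macrophage, dendritic cell, T cell, B cell or endothelial markers the list's median was -1.18. That filter kept 35 members in AD replicate 1 and did not cover Schwann, fibroblast or pericyte markers. With barcodes thinned to 3000 UMIs and the sides called again the median was -1.19. How much of the fall came from RNA of other cells was not tested. The list of immediate early and dissociation stress genes had 1 rise and 11 falls among 28 genes (median -0.34). That is 42.9% called, against 9.44% of all genes tested. Hspb1, a small heat shock protein abundant in muscle, stood at 5732 and 4727 CPM in AD_ABR members, against 3841 and 3508 CPM in AD members (log2 fold change 0.58, SE 0.15, adjusted p = 0.0127). Myc fell to 24.2 and 26.4 CPM in AD_ABR members, against 48.6 and 57.5 CPM in AD members (log2 fold change -1.03, SE 0.15, adjusted p = 6.06e-05), and Fosl2, a subunit of AP-1, to 74.3 and 63.1 CPM in AD_ABR, against 205 and 129 CPM in AD (log2 fold change -1.15, SE 0.19). Egr2, Nr4a3, Fosb, Fosl1, Egr1, Hspa1a, Klf6, Dnajb1 and Atf3 fell too, Fosl1 without passing at the 2% floor (adjusted p = 0.156). Fos stood at 3825 and 4122 CPM in AD_ABR members, against 3482 and 4358 CPM in AD members (adjusted p = 0.760). Such genes also respond to tissue dissociation, whose part was not tested.

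**Figure D3:**
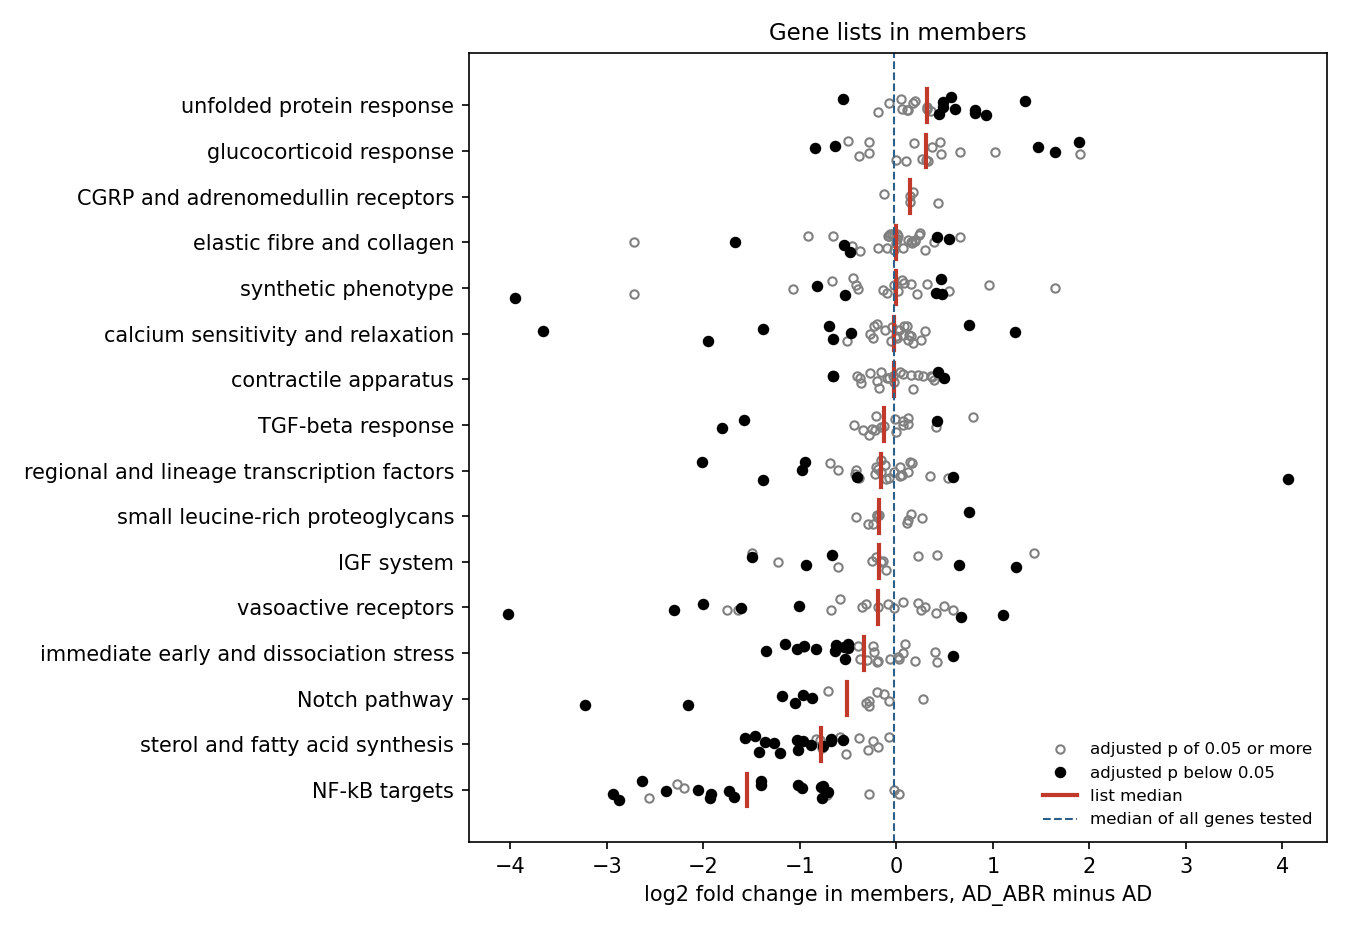
Each point is a gene of a list tested in members; the horizontal axis is its log2 fold change, AD_ABR minus AD. Filled points have an adjusted p below 0.05, the red bar is the list's median and the dashed line the median of all genes tested, at -0.02; the NF-kB list (median -1.54) and the sterol list (-0.78) lie furthest left and the unfolded protein response list (0.32) furthest right.

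The Ptprz1 and Npnt side of the same libraries gave 933 calls of 13700 genes (6.81%), and many of the named genes changed there as much. Klf15 had a log2 fold change of 1.86 on that side and Zbtb16 one of 1.43, and the tests of the difference between the sides gave adjusted p-values of 0.966 and 0.956. Idi1 had -1.57 and Heyl -0.99 on that side (adjusted p of the difference 0.780 and 0.964). With library as a block, the response differed between the sides in 234 of 14232 genes (1.64%), 88 more positive in members and 146 more negative. Under the 2% floor 51 genes passed, 36 of them among the 234, and after thinning to 3000 UMIs 18 passed, 4 of them among the 234. Thinning left out shallower barcodes and the sides were called again on fewer UMIs, so that of 1501 and 1461 members in AD_ABR, 997 and 1067 had been members before, against 123 of 240 and 549 of 810 in AD.

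Among the genes named, Myoz2 rose more in members than on the other side, where its log2 fold change was 0.88 (difference 0.70, SE 0.11, adjusted p = 9.36e-05; 0.57 and 0.0110 at the 2% floor). Cdo1 had 0.85 on the other side (difference 0.60, SE 0.09, adjusted p = 5.90e-05; 0.49 and 0.00965 at the 2% floor). Notch3 had -0.24 on the other side, where it did not pass, and the difference was -0.998 (SE 0.14, adjusted p = 9.03e-06; -0.77 and 0.0120 at the 2% floor). Notch3 is also on the pericyte marker list, and 2 further markers of it were also lower in both AD_ABR libraries: Vtn stood at 3.84 and 0.78 CPM in AD_ABR members, against 7.63 and 9.53 CPM in AD members, and Higd1b at 1.48 and 0.92 CPM in AD_ABR members, against 9.71 and 5.90 CPM in AD members. On the other side both were under 1 CPM in every library. The sum of all 7 pericyte markers did not separate the groups. It stood at 922 and 787 CPM in AD_ABR members, against 814 and 944 CPM in AD members. In members with Acta2 and Tagln between 1 and 2% it was 2220 and 1340 CPM in AD_ABR, against 1331 and 1334 CPM in AD. The part of pericyte RNA in the Notch3 difference was not tested. Myoz2, Cdo1 and Notch3 kept their difference under the 2% floor, whereas after thinning none of the 22 genes chosen by the naming rule with a difference passed. Htra1, Mfap4 and Hspb1 rose further in members, by differences of 0.25, 0.29 and 0.26 that also passed at the 2% floor (0.23, 0.24 and 0.20). Actc1 (-2.37) and C3 (-1.47) passed at both floors as well, though both rested on few barcodes, C3 being seen in 7.29 and 9.94% of AD_ABR members, against 11.2 and 10.0% of AD members. Sfrp1, a secreted Wnt antagonist, and Marcks had differences of -1.49 and -1.15 that did not pass at the 2% floor (adjusted p = 0.472 and 0.634), and members with Acta2 and Tagln between 1 and 2% gave 32.3 and 27.5% of the Marcks UMIs in AD_ABR, against 76.6 and 63.9% in AD.

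**Figure D4:**
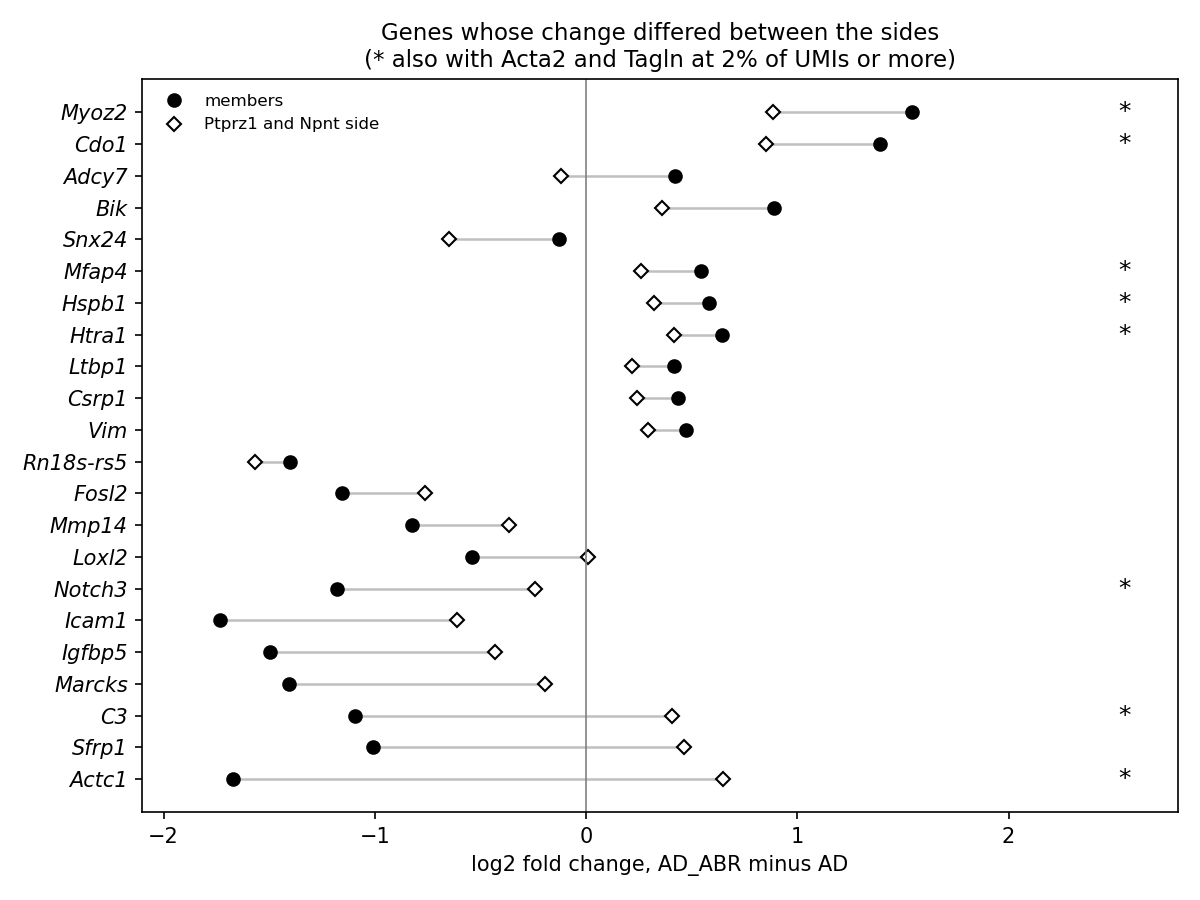
The horizontal axis is the log2 fold change, AD_ABR minus AD, in members (filled circles) and on the Ptprz1 and Npnt side (open diamonds) for the named genes whose responses differed between the sides; an asterisk marks those that also passed with Acta2 and Tagln at 2% of UMIs or more. Myoz2, at 1.54 in members and 0.88 on the other side, lies at the top and Actc1, at -1.67 and 0.65, at the bottom.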

How the data were processed

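The deposited files are UMI counts per gene and cell barcode for 4 libraries of 10x Genomics 3′ single-cell RNA sequencing, whole numbers with no normalization, per the file headers. The submitters' processing notes list STAR, Cell Ranger 6.0, Seurat 4.0 and GRCm38. Per the file headers, Cell Ranger was version 7.1.0. The annotation release used for counting is not given in the sources used here. Library totals were 93575612 and 98946431 UMIs in AD_ABR, against 76142840 and 99572011 in AD. Groups and replicate numbers came from the titles.

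Barcodes were selected by the rule stated above (Python 3.11.15, scanpy 1.11.5, numpy 2.4.6). Member UMIs were summed per library, since cells are not replicates, and tested with edgeR 4.0.16 (limma 3.58.1, R 4.3.3): TMM, filterByExpr, robust quasi-likelihood, Benjamini-Hochberg adjustment over all genes tested, threshold 0.05. Every adjusted p above comes from edgeR in this form, and an SE is the fold change over the square root of F. The response of the sides was compared in a fit with library as a block and a side by group term. Shares were tested by exact permutation over the 4 libraries (scipy 1.17.1). Log2 ratios between sides have 5 CPM added. On simulated counts the member test recovered 16.5, 70.0 and 90.5% of 200 genes changed by 1.5, 2 and 4-fold among 13402. The side by group test recovered 1.0, 44.5 and 86.5% of them. False calls numbered 0, 11 and 5 in the member test, and 0, 5 and 14 in the side by group test.

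Genes named are the 10 with the highest and the 10 with the lowest log2 fold change past the test (mean of at least 20 CPM, libraries apart, level in members at least that outside the pool, rule genes, unnamed and ribosomal genes left out), up to 4 per list and direction, the 12 on either side in the contrast of sides, the 5 at either end of the side by group test, and the rule's genes. Some genes that meet these rules are not reported here. Other list genes were named to complete a list's count, after their values were seen. The members and lists were chosen with earlier results of these data known. Doublets stayed in, and an alternative removed the highest Scrublet scores at 0.8% per 1000 barcodes. Other alternatives were RLE scaling, no filter, DESeq2 1.42.0, a replicate block, leaving out each library, mitochondrial UMIs below 10%, a margin of at least 2, thinning to 3000 UMIs, and members with no UMI of other types' markers. Those other types were neutrophils, macrophages, dendritic cells, T cells, B cells and endothelial cells, without fibroblasts, pericytes or Schwann cells. The 2% floor and the held-out UMIs were added after seeing the data. Promoter windows came from RefSeq (GRCm38.p6), and gene positions from GENCODE M21. The motif forms were chosen after the results were seen, and a narrower NF-kB form searched first matched fewer listed genes and fewer windows. UMI counts of the replicates differed beyond sampling noise (chi-square per degree of freedom 8.88 in AD_ABR and 4.64 in AD), so each library counted as 1 sample.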

Additional observations from a re-analysis of the deposited data

Results flagged for a closer look

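In 22 genes chosen by the naming rule the AD_ABR minus AD change differed between members and the Ptprz1 and Npnt side by the side by group test of edgeR (adjusted p below 0.05 over 14232 genes). The difference, members minus other side in log2, was positive for Myoz2 (0.70), Cdo1 (0.60), Adcy7 (0.56), Bik (0.56), Snx24 (0.52), Mfap4 (0.29), Hspb1 (0.26), Htra1 (0.25), Ltbp1 (0.22), Csrp1 (0.20), Vim (0.18) and Rn18s-rs5 (0.17). It was negative for Fosl2 (-0.34), Mmp14 (-0.48), Loxl2 (-0.55), Notch3 (-0.998), Icam1 (-1.07), Igfbp5 (-1.12), Marcks (-1.15), C3 (-1.47), Sfrp1 (-1.49) and Actc1 (-2.37). With Acta2 and Tagln at 2% of UMIs or more, 8 of the 22 passed again, namely Myoz2, Cdo1, Mfap4, Hspb1, Htra1, Notch3, C3 and Actc1. With DESeq2 6 of the 22 passed, and after thinning to 3000 UMIs 0 passed. Several of the differences are small: Vim had 7810 and 8120 CPM in AD_ABR members, against 5458 and 6608 CPM in AD members, with a log2 fold change of 0.47 in members and 0.30 on the other side. Adcy7, an adenylyl cyclase, did not pass in members (log2 fold change 0.42, adjusted p = 0.0944), and Snx24 did not either (-0.13, adjusted p = 0.677), so for these the change lay on the other side or in the difference alone. Bik, a BH3-only death protein, stood at 51.8 and 55.8 CPM in AD_ABR members, against 26.4 and 32.2 CPM in AD members.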

How the results depend on the processing

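Of 69 named genes, 55 kept direction and call at the 2% floor, 45 after thinning to 3000 UMIs and 38 in members with no UMI of other types' markers. The last filter covered immune and endothelial markers only. The count of genes changed in members was 1265, and 541 with DESeq2, 449 thinned, 302 with no UMI of other types (258 of them among the 1265), and 601 to 1595 with a library left out, lowest without AD_ABR replicate 2. The count of differences between sides was 234, and 28 with DESeq2, 18 thinned, 128 with doublets removed and 51 at the 2% floor. With a library left out, list medians ran from 0.11 to 0.51 (CGRP receptors), -0.36 to 0.020 (IGF), -0.41 to -0.023 (vasoactive receptors), -0.11 to 0.15 (elastic fibre), -0.26 to 0.12 (small leucine-rich proteoglycans, 0.092 at the 2% floor), -0.91 to -0.72 (sterol) and -0.72 to -0.48 (Notch, -0.31 at a margin of at least 2). The vasoactive median was 0.088 thinned and 0.19 with no UMI of other types, and the NF-kB median -1.19 and -1.18. Reversed were Actc1 (0.050) and C3 (0.13) with no UMI of other types, Loxl2 at the 2% floor (0.0079), Snx24 with a library left out (up to 0.011), and the share of the pool without AD replicate 1 (-1.57 points, up to 16.8 without AD replicate 2). In the side by group test Actc1 (0.077) and Loxl2 (0.020) reversed thinned, and Loxl2 at the 2% floor (0.11). The cause was not tested. A fit with a replicate block gave 1882 calls. Same-numbered libraries did not deviate together (correlation 0.0599, 2 pairs). With 2 pairs this cannot settle whether the numbers pair, and the labels do not say what they mark. The AD replicate 1 sum, the thinnest, limits the least abundant genes.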
